A study of Mus musculus with 3 samples.

Results

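DNase-seq in mouse Müller cells found 963 strongest distal sites, out of 352310 merged regions in all. DNase-seq uses cutting by the nuclease DNase I to map accessible chromatin. Peaks of the 3 replicates were merged where they shared at least 1 bp. Members were selected on these scores: a region on an autosome or the X chromosome was chosen when its best peak score was 125 or more in each replicate, its edge lay between 1 kb and 100 kb from the nearest protein-coding start site, and no base of it fell in coding sequence. A peak in all 3 replicates was found in 145369 regions, of which 83045 were distal by the same limits. The members were 1.16% of those, and the remaining 82082 are called other distal sites below.

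The material was a single group of 3 biological replicates of primary Müller cells, the radial glia of the retina, from B6NCrl mice 12 days after birth, with males and females pooled and no treatment named. The replicates are labelled as separate biosamples of the same donor label, so a spread between replicates may be partly technical. The protocol they cite was written for cultured cells, and no sort or time in culture is named. Of 16 Müller markers, 16, 16 and 16 had a promoter peak in replicates 1, 2 and 3, while none of 6 rod markers had a promoter peak in any replicate. Of 10 microglia and macrophage markers, 10 had a promoter peak in replicate 1, 10 in replicate 2 and 1 in replicate 3. For endothelium the counts were 5, 5 and 4 of 6, and for astrocytes 5, 5 and 5 of 5.

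Distal accessible sites include enhancers, which bind transcription factors and act on the promoters of genes at a distance, insulators bound by CTCF, and promoters of transcripts outside the protein-coding annotation. Müller glia support retinal neurons and respond to injury with gliosis, a programme of cytokine, immediate early and cytoskeletal genes. TEAD factors act with YAP, AP-1 is a dimer of FOS and JUN proteins, and SP and NF-Y factors bind GC boxes and CCAAT boxes, elements best known from promoters.

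The windows below show what the members look like at the level of sequence. They are among the members whose lowest score over replicates was highest, and Rassf7 is the top-ranked of the 6 members that matched the CTCF consensus. Each is the plus strand of the mm10 reference over the 150 bases round the centre of the site and is named by the gene with the nearest start. Capitals mark matches, on either strand, to SP (GGGCGGG), AP-1 (TGACTCA or TGAGTCA), TEAD (ACATTCC or GCATTCC), NF-Y (CCAAT with A or G before it, then C or G, then A or G), the E-box CAGCTG, CTCF and the shorter CTCF core. Neighbouring or overlapping matches run together in capitals.
Mnt, chr11:74832156-74832305: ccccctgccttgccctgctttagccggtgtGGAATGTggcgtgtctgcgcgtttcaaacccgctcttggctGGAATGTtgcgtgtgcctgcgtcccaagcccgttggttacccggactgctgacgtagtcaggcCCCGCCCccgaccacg
Wnt7b, chr15:85634576-85634725: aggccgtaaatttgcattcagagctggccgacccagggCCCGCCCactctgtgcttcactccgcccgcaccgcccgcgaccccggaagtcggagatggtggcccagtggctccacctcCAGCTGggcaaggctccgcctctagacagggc
Fos, chr12:85472086-85472235: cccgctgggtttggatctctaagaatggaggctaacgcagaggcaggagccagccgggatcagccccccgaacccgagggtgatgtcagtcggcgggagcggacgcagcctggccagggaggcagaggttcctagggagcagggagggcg
Cct8l1, chr5:25529646-25529795: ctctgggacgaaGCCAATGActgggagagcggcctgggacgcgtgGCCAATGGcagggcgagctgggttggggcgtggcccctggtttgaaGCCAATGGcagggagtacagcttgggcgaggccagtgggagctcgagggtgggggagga
Anapc13, chr9:102643866-102644015: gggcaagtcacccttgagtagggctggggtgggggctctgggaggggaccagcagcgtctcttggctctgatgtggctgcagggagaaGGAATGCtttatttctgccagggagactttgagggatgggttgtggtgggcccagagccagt
1700001O22Rik, chr2:30712096-30712245: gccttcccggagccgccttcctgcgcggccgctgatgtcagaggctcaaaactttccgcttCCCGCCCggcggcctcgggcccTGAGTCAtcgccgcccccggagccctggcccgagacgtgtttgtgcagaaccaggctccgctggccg
Rassf7, chr7:141221836-141221985: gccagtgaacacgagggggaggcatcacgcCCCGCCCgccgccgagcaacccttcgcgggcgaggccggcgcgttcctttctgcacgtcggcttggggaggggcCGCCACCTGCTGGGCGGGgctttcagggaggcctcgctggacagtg
The Mnt window held 1 SP match and 2 TEAD matches. In the Cct8l1 window 3 NF-Y matches stood in the same direction, and that site lay 208 bp from a start of the long noncoding RNA 1700096K18Rik. The 1700001O22Rik window combined an SP and an AP-1 match, and the Fos window held no match to any of these motifs.

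The score is the authors' own and what it counts is not stated; it is a whole number that reaches 150, the width of a peak. The top-ranked member lay 1216 bp downstream of a start of Mnt, in an intron of the gene, which encodes a repressor that pairs with MAX. Its scores were 147, 148 and 147 in replicates 1, 2 and 3. The next scored 147, 146 and 146 and lay 52063 bp upstream of the gene for the secreted ligand Wnt7b. The third stood 1645 bp upstream of Fos, whose product is an AP-1 subunit, and scored 148, 145 and 145. Values in these 3 sites stayed within 3 score units over the replicates.

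Ranks 4 to 15 were held by sites next to Gm42906, Cct8l1, Anapc13, 1700001O22Rik, Ssc4d, Itpkb, Trappc9, Frmd8, Hbegf, Ift81, Nxnl2 and Cryaa. The Gm42906 site overlapped a start of the long noncoding RNA 1700028E10Rik. Anapc13 encodes a subunit of the anaphase-promoting complex, Itpkb an inositol trisphosphate kinase, Hbegf a ligand of the EGF receptor, Ift81 a protein of intraflagellar transport and Cryaa the lens chaperone αA-crystallin. The site next to Hbegf scored 149, 143 and 146, and that next to Cryaa, 7422 bp upstream, scored 147, 145 and 143. No site of the 15 was under 143 in any replicate.

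**Figure D1:**
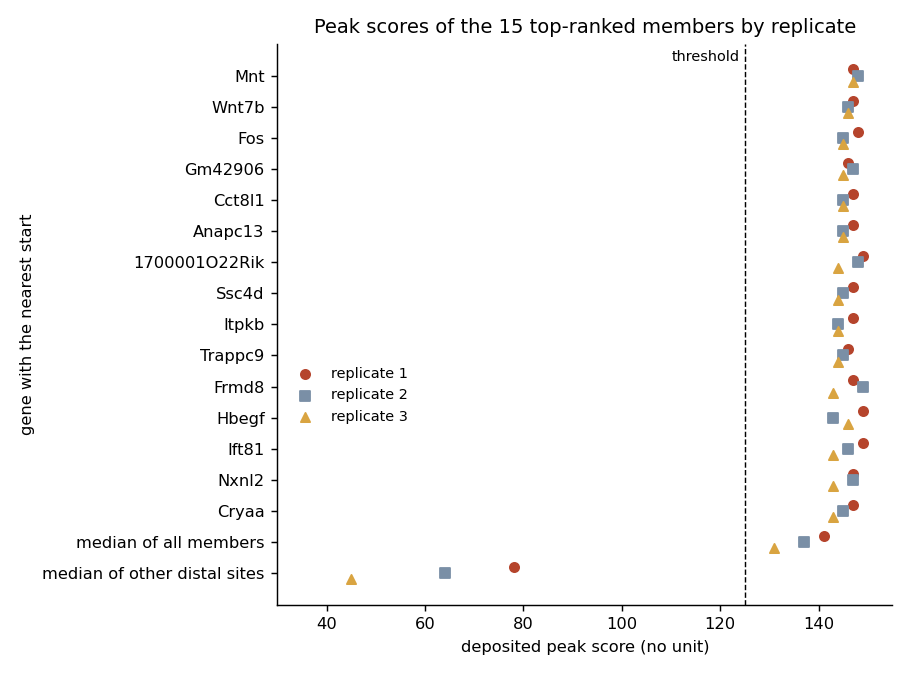
Deposited peak score (x axis, no unit) of the 15 members with the highest lowest score, named by the gene with the nearest start (y axis), with the medians of all members and of other distal sites at the bottom; a symbol stands for each replicate and the dashed line for the threshold of 125. All 15 lie at 143 or more in every replicate, whereas the medians of other distal sites are 78, 64 and 45.

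The scores that chose the members are given as a description. Median scores of members were 141, 137 and 131 in replicates 1, 2 and 3, and those of other distal sites were 78, 64 and 45. The median SD of a member over the 3 replicates was 4.58 score units and the largest was 11.6. At the threshold itself stood 99 members, such as a site 5450 bp from a start of Gpsm1 that scored 146, 141 and 125. Just outside it, at a lowest score of 124, stood 96 sites, such as a site 20464 bp from a start of Rassf4 that scored 149, 144 and 124.

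Replicate 3 set the limit for most members. Distal regions at 125 or more numbered 7095 in replicate 1, 4344 in replicate 2 and 1182 in replicate 3, of 300269, 281185 and 184544 peaks. Replicate 3 alone held the lowest score in 676 members, replicate 2 alone in 182 and replicate 1 alone in 33. Of 4203 distal regions that passed in replicates 1 and 2, 3201 scored lower than 125 in replicate 3, with a median of 106 there, and 39 had no peak in replicate 3. The same score was therefore a stricter limit in replicate 3 than in the others. Counts, median distance, gene lists, GC and the leading motifs are given below also without replicate 3. Hotspots, shares in introns and between genes, nearness to noncoding, other transcript and microRNA starts, motif positions and the named sites are given with it only.

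Members lay closer to gene starts than other distal sites. Their median distance to a protein-coding start was 15393 bp, against 22830.5 bp in other distal sites. Without replicate 3 the medians were 21680 bp at the sites that passed and 22126 bp at the remainder. Between 1 and 2.5 kb of a start lay 12.6% of members (95% Wilson interval 10.6 to 14.8%), against 7.16% of other distal sites (6.99 to 7.34%). Wilson intervals here cover counting error over sites only, and neighbouring sites are not independent. Centres in introns made up 43.9% of members and 52.1% of other distal sites, and centres between genes 52.9% and 44.8%. A start of a long noncoding RNA lay within 1 kb of 9.87% of members (8.14 to 11.9%), against 2.58% of other distal sites (2.48 to 2.69%), and an annotated start of any transcript within 1 kb of 18.9% of members, against 6.98%. Chromosome 11 carried most members, 112, which was 2.00% of its distal sites, and the X chromosome 7, or 0.364%. Apart from the median distance, these values were not computed without replicate 3.

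The hotspots round members, the wider accessible regions that the authors called separately, were long. Their median width was 1014.5 ± 87.2 bp at members and 391 ± 38.7 bp at other distal sites (SD, n = 3 replicates). The hotspot reached the highest deposited −log10 q, a cap of 100, at 99.9% of members in every replicate and at 69.0% ± 17.4 of other distal sites. Hotspots and peaks come from the same replicates, and members were chosen by peak score. The hotspot differences are therefore not independent of that choice. At a limit of 20 bp, how precisely the replicates placed the site did not set members apart. Peak centres fell within 20 bp of each other in 51.2% of members (48.0 to 54.3%) and 51.2% of other distal sites (50.8 to 51.5%). The median spread was 20 bp in both sets. Starts of members stood 20 bp or multiples of it apart, so a finer difference could not be seen.

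A member was given to the gene with the nearest protein-coding start, which does not show which gene it regulates. By that rule 781 of 21646 protein-coding genes (3.61%) had at least 1 member. Of these, 652 had 1, 96 had 2, 20 had 3, 9 had 4, and the rest had 5 or more, among them Irf2bp2 and Zmiz1 with 5 each and Kdm6b with 7. A promoter site present in all 3 replicates was found at 90.0% of the genes with a member, against 67.1% of all genes. Genes with a member had a median of 10 distal sites, against 2 over all genes.

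By nearest start, Kdm6b had the most members. The gene, which encodes a demethylase of histone H3 lysine 27, had 7 members among 15 distal sites, all on chromosome 11 within 9530 bp, 4 in its introns and 3 upstream. The closest of them lay 210 bp apart, so some may be peaks of the same hotspot, which was not counted. In the introns, 3950, 2810, 2290 and 1790 bp from the start, the sites scored 129, 129 and 129, then 141, 142 and 134, then 138, 129 and 126, then 133, 133 and 133. Upstream, at 3921, 4301 and 5221 bp, they scored 136, 131 and 128, then 144, 147 and 138, then 147, 138 and 143. The upstream sites reached higher than the intronic ones in every replicate, but the 2 groups overlapped. GC content of the 7 windows was between 58.0 and 74.7%, SP matched 3 of them and AP-1 matched 2, of which 1 held both. Irf2bp2, a corepressor that binds IRF2, had 5 among 37, and Zmiz1, a PIAS-like coactivator, had 5 among 44. The chromatin remodeller Chd2 and the SMAD corepressor Ski each had 4, of 23 and 18 distal sites.

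Others with 4 members were Lif, Edn2, Pmepa1, Irf2bpl, Nanos3, Mrps23 and 1700001O22Rik. The 4 Mrps23 sites lay in introns of Cuedc1, whose introns also held the 3 members with Cuedc1 as the nearest start. Lif encodes a cytokine of the interleukin-6 family, and its 4 members lay 9381 to 32181 bp downstream of its start with scores of 143, 143 and 142 at the nearest of them. The next sites out scored 147, 139 and 145, then 147, 147 and 141, then 142, 135 and 140. None of the 4 Lif sites was under 135 in any replicate. Edn2, which encodes an endothelin, had 4 members among only 9 distal sites, and the highest scored 143, 141 and 143. The Edn2 site 12241 bp upstream matched SP, AP-1 and TEAD together. Pmepa1, a feedback inhibitor of TGF-β signalling, had 4 among 33. Fos and Tlcd2, with 3 members each, completed the first 15 genes.

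Among the gene lists, immediate early and AP-1 genes had the highest share of genes with a member. A member was nearest to 12 of 30 of them, or 40% (24.6 to 57.7%), where 3.61% of all genes had a member. They held 17 members among 330 distal sites, or 5.15 per 100, where all genes held 1.16 per 100. Fos had 3, and Nr4a3, an orphan nuclear receptor, Junb, an AP-1 subunit, and Btg2, an antiproliferative gene, had 2 each. The remaining 8 genes, among them Jun, Myc, Egr3 and Dusp1, had 1 each. The site 1993 bp downstream of a Junb start scored 141, 134 and 134, and the Jun site, 53274 bp upstream, scored 131, 131 and 125. The outer Fos sites, 18445 bp upstream and 12126 bp downstream, scored 146, 143 and 144 and 139, 129 and 131. Of the 17 members of this list 13 had at least 60% GC, 6 matched SP, 2 AP-1 and 2 TEAD. Over all members SP matched 20.6%, AP-1 18.3% and TEAD 17.9%, and the motif counts of the list are too small to set apart from these. The median GC of all members was 59.3%, and their share with at least 60% was not counted.

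Gliosis and injury response genes had a member at 9 of 30 genes (30%, 16.7 to 47.9%). They held more members than the immediate early list, 20 among 276 distal sites, or 7.25 per 100. Lif and Edn2 had 4 each, and Socs3, a feedback inhibitor of STAT3, and Cebpb, a transcription factor of the acute response, had 3 each. Hbegf had 2, and Gfap, the glial intermediate filament, Hmox1, Serpina3n and Nes had 1 each. The Socs3 site 5521 bp downstream of its start scored 146, 141 and 141. The Gfap site, 1316 bp upstream, scored 134, 136 and 125 and so sat at the threshold in replicate 3. Of the 20 members of this list 7 matched TEAD, 5 CAGCTG, 4 AP-1 and 3 SP, numbers too small to set apart from the shares over all members given below.

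Genes of Müller glia themselves had a member in 10 of 38 cases (26.3%, 15 to 42.0%), with 15 members among 505 distal sites, or 2.97 per 100. Hes1, an effector of Notch, had 3 members, and that 1075 bp upstream scored 144, 134 and 139. All 3 Hes1 sites matched SP, and the site 56195 bp upstream also matched AP-1 and TEAD. That site lay 329 bp from a start of the long noncoding RNA 4632428C04Rik. Id3, an inhibitor of basic helix-loop-helix factors, and Six3 and Pax6, homeobox factors of the eye, had 2 each. Rlbp1, the retinaldehyde-binding protein of Müller cells, had 1 site 21627 bp downstream that scored 142, 131 and 133. Glial and progenitor transcription factors, a list that overlaps with the last, had a member at 9 of 36 genes, with 1.98 per 100 distal sites.

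Signalling and cytoskeletal lists had shares of genes between 13.3 and 26.3%, with wide intervals. Per 100 distal sites the FGF, EGF and ERK feedback list held 1.63 members and the Wnt list 1.81, against 1.16 over all genes. The actin list held 2.61, the BMP and TGF-β list 3.11, the Notch list 3.41 and the YAP and TEAD list 3.90. A member was found at 5 of 19 YAP and TEAD pathway genes, with 3 at Amotl2, a YAP inhibitor, 2 at Vgll4, a TEAD cofactor, and 1 each at Ccn1, Ajuba and Tead1. It was found at 7 of 28 actin, adhesion and matrix genes, led by 3 at Actg1, the cytoplasmic γ-actin. The Notch list had 4 of 20, led by 3 at Hes1 and 2 at Notch1, and the BMP and TGF-β list 4 of 27, led by Ski with 4 and Smad3 with 3. The Wnt list had 4 of 30, led by 3 at Wnt7b, and the FGF, EGF and ERK feedback list 4 of 25, led by 2 at Hbegf. Lists of other cells and tissues were near or below the share over all genes: 1 of 18 microglia and macrophage genes (Runx1), 1 of 22 rod genes (Pde6a), 0 of 16 endothelial and 0 of 19 liver genes. Per 100 distal sites the rod list held 1.49 members, close to the FGF and Wnt lists, and the microglia list 0.971. With lists of this length, 0 of 19 allows a share of up to 16.8% by the Wilson interval.

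Without replicate 3, where 2795 genes (12.9%) had a member, 23 of 30 immediate early genes, 20 of 30 gliosis genes and 21 of 38 Müller glia genes did. Members per 100 distal sites were then 7.43, 9.27 and 6.54 in these lists, against 2.99 over all genes. The actin list had 17 of 28, the FGF, EGF and ERK list 14 of 25, the Wnt list 13 of 30, the BMP and TGF-β list 12 of 27, the YAP and TEAD list 8 of 19 and the Notch list 6 of 20. Endothelial genes had 5 of 16, microglia genes 3 of 18, rod genes 3 of 22 and liver genes 0 of 19. The endothelial list thus held no member with all 3 replicates and 11 without replicate 3. Per 100 distal sites it then held 5.56. That was above the glial factor list (4.85) and the Notch (4.78), FGF (4.27) and Wnt (4.26) lists. It was below the actin (6.45), BMP and TGF-β (6.64) and YAP and TEAD (7.43) lists. The rod list, at 3.51, and the microglia list, at 3.27, were also above the 2.99 over all genes.

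**Figure D2:**
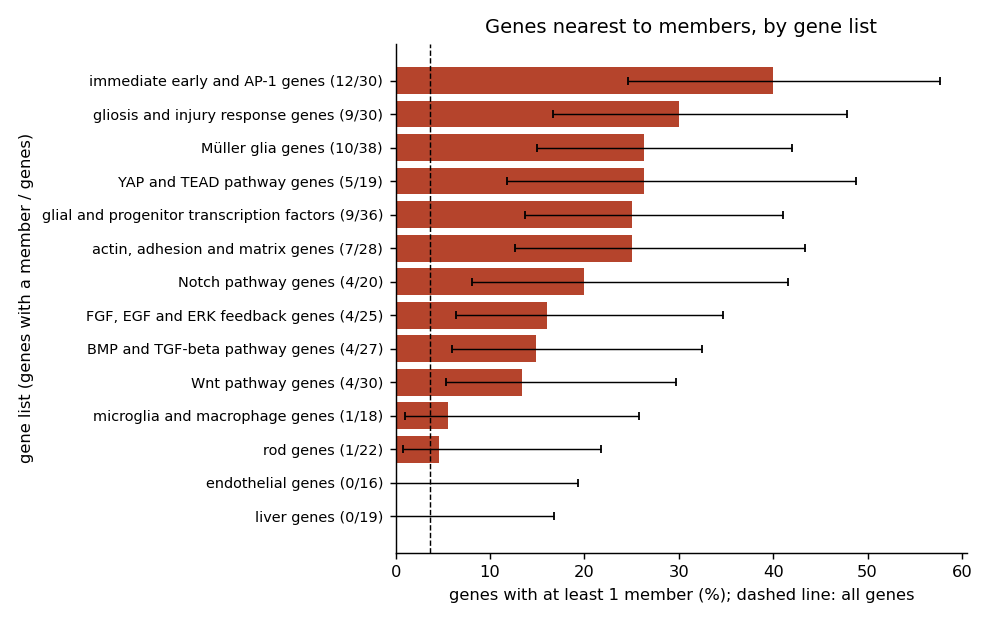
Share of the genes of each list with at least 1 member (x axis, %) by gene list (y axis, with counts), bars with 95% Wilson intervals; the dashed line is the 3.61% of all protein-coding genes. Immediate early and AP-1 genes reach 40% and gliosis genes 30%, while the endothelial and liver lists hold no member.

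Members clustered. Another member lay within 10 kb of 189 of them (19.6%, 17.2 to 22.3%), whereas a member lay within 10 kb of 2422 other distal sites (2.95%, 2.84 to 3.07%). Peaks that shared no base counted as separate members, so members this close can be peaks of the same hotspot. The 2 Srf members, for instance, spanned 450 bp, where the median hotspot width at members was 1014.5 bp. How many neighbours shared a hotspot was not counted. With the same number of top distal peaks from each replicate, which left 444 members, the share with another member within 10 kb was 10.8%. Among other distal sites, the share with a member within 10 kb went from 0.539% at a lowest score of 0 to 24 to 8.69% at 100 to 124. It thus moved with score below the threshold too. Distal sites of any score were also denser: a median of 4 further sites lay within 10 kb of a member, against 2 for other distal sites. A promoter site at or over 125 in all replicates stood within 10 kb of 14.0% of members, against 5.59%. The 189 formed 83 clusters, of which 69 had 2 members, 8 had 3, 5 had 4 and 1 had 7, while the median distance between neighbouring members was 208030 bp.

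The Kdm6b cluster, chr11:69409536-69419065, held the 7. The next was chr7:16294976-16299865, where 4 members lay within 4890 bp between Ccdc9 and Bbc3, the p53 target PUMA, and the Bbc3 site scored 141, 140 and 140. Another 4 lay at chr2:30708256-30719305, 82402 bp or more from the nearest coding start, and included the site that scored 149, 148 and 144. Clusters of 4 also stood upstream of Nanos3 within 11670 bp, at chr8:84192096-84203765, and downstream of Irf2bpl within 12830 bp, at chr12:86824096-86836925. The 4 Nanos3 sites had lowest scores between 132 and 139 and the 4 Irf2bpl sites between 129 and 137. Sites of the Nanos3 cluster lay 0 and 789 bp from a start of the long noncoding RNA Gm26887.

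In sequence, members were rich in G and C. The 150 bases round their centres had 59.7% ± 7.06 GC (SD over 963 sites), against 49.6% ± 7.12 in the 82082 other distal sites and 47.7% in 1495 flanking windows 1 kb to either side of members that overlap no peak. GC rose step by step with the lowest score, with medians of 46.0% at 0 to 24, 49.3%, 50.7%, 52.0%, 54.7% at 100 to 124 and 59.3% in members. CpG-rich windows, with at least 55% GC and a ratio of observed to expected CpG of at least 0.6, made up 24.1% of members (21.5 to 26.9%) and 2.94% of other distal sites (2.83 to 3.06%). Among the strongest promoter sites, 3998 regions within 1 kb of a protein-coding start that passed the same score limit, the share was 84.5%. Windows that are mostly repeats were 0.519% of members and 3.27% of other distal sites.

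Of 38 motifs, SP had the largest difference in percentage points with all 3 replicates. A match to GGGCGGG stood in 198 members, or 20.6% (18.1 to 23.2%), against 3.16% of other distal sites (3.04 to 3.28%), a ratio of 6.51. The flanking windows had 1.34% and the strongest promoter sites 51.7%. The share in distal sites was 1.36% at a lowest score of 0 to 24 and 7.76% at 100 to 124. NF-Y, the CCAAT box factor, matched 8.83% of members (7.19 to 10.8%) and 3.52% of other distal sites, and ETS (CCGGAAG) 2.91% and 1.03%. Without replicate 3 the difference in NF-Y share, 5.31 points, was 2.05 points, and that in SP share, 17.4 points, was 4.67 points, below the 9.22 points of AP-1 and the 7.35 points of TEAD. SP, NF-Y and ETS were more frequent still at the strongest promoter sites, with 26.9% for NF-Y and 13.8% for ETS.

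TEAD and the E-box CAGCTG, a site of basic helix-loop-helix factors, were more frequent in members than in other distal sites and less frequent at the strongest promoter sites. TEAD matched 17.9% of members (15.6 to 20.4%), against 12.7% of other distal sites, 3.21% of flanking windows and 2.95% of the strongest promoter sites. CAGCTG matched 18.3% of members (16 to 20.8%), against 13.7%, with 6.03% at the strongest promoter sites, 9.73% at all promoter sites and 7.96% in flanking windows. When only the outermost start of each gene counted, the difference was 1.96 points for TEAD, against 5.19 points by the rule, and 2.04 points for CAGCTG, against 4.58 points. AP-1 matched 18.3% of members (16 to 20.8%) and 16.7% of other distal sites (16.4 to 16.9%), a difference within counting error, while the flanking windows had 2.14% and the strongest promoter sites 1.98%.

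CTCF, the insulator factor, went the other way. Its consensus matched 6 members, or 0.623% (0.286 to 1.35%), against 5.57% of other distal sites (5.41 to 5.73%) and 0.201% of flanking windows. Over the lowest score the share was 4.88% at 0 to 24, 6.36% and 6.57% in the next steps, 3.45% at 75 to 99 and 1.24% at 100 to 124. The hotspot value did not show the same order: among other distal sites, those whose hotspot was at the cap in all 3 replicates matched in 6.04% of cases, against 5.19% of the remainder. The 6 members lay nearest to Rassf7, Ltbp3, Ccn1, Stard10, Gm10428 and Spdye4c. The homeobox motif TAATTA matched 2.70% of members and 6.0% of other distal sites, and RUNX (TGTGGTT) 4.47% and 6.86%. Neither direction held in every replicate: the differences were 0.896, 0.0583 and −2.72 points for TAATTA and 0.771, 0.0298 and −2.68 points for RUNX in replicates 1, 2 and 3. Rarer in all 3 were the E-box CAGATG, in 10.1% of members and 14.4% of other distal sites, and OTX and CRX (TAATCC), in 1.97% and 3.95%. The NF-κB consensus was more frequent, in 5.19% of members (3.96 to 6.78%) and 2.35% of other distal sites, as was the CRE of CREB and ATF factors (TGACGTCA), in 1.35% (0.791 to 2.30%) and 0.384%. The SOX motif (ACAAAGG or ACAATGG) matched 10.5% of members (8.71 to 12.6%) and 8.99% of other distal sites.

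**Figure D3:**
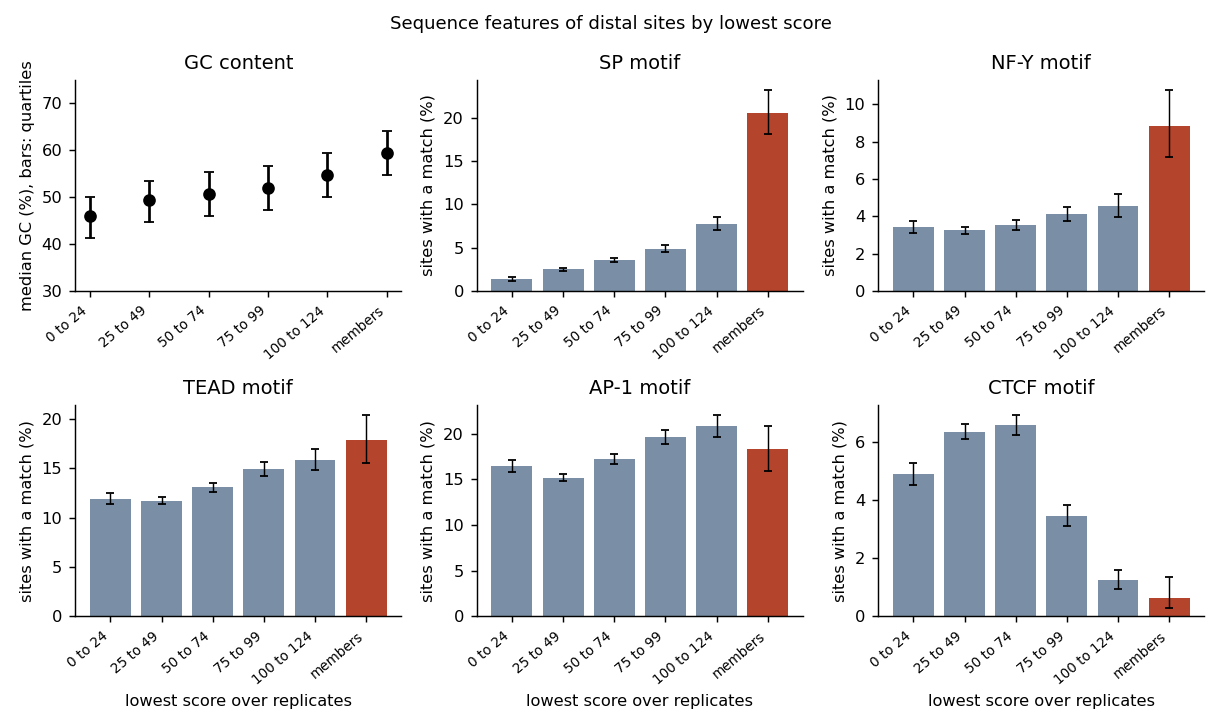
Sequence features of distal sites by their lowest score over the 3 replicates (x axis), with members at the right; the first panel gives median GC (%) with quartiles, the others the share of sites with a motif match (%) with 95% Wilson intervals. SP reaches 20.6% in members, against 7.76% at a lowest score of 100 to 124, while CTCF falls to 0.623%.

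Matches to SP, NF-Y, AP-1 and TEAD in members were most frequent near the centre of the sites. CAGCTG was flatter, with 7.58 matches per 100 members in the 50 bp step centred at 25 bp and 7.79 at 75 bp. CTCF matches in members were few and did not peak at the centre, with 0.312 per 100 at 25 bp and 0.831 at 125 bp. In 50 bp steps, SP matches in members peaked at 10.9 per 100 sites next to the centre and came to 2.70 and 2.08 at the outer steps, 275 bp away. AP-1 peaked at 8.31 per 100 members and 7.34 per 100 other distal sites next to the centre. One step further out, centred at 75 bp, AP-1 still had 6.85 matches per 100 members, against 3.13 per 100 other distal sites. The AP-1 profile of members was thus broader, and in a 300 bp window the difference in AP-1 share was 6.42 percentage points, against 1.59 in the 150 bp window.

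**Figure D4:**
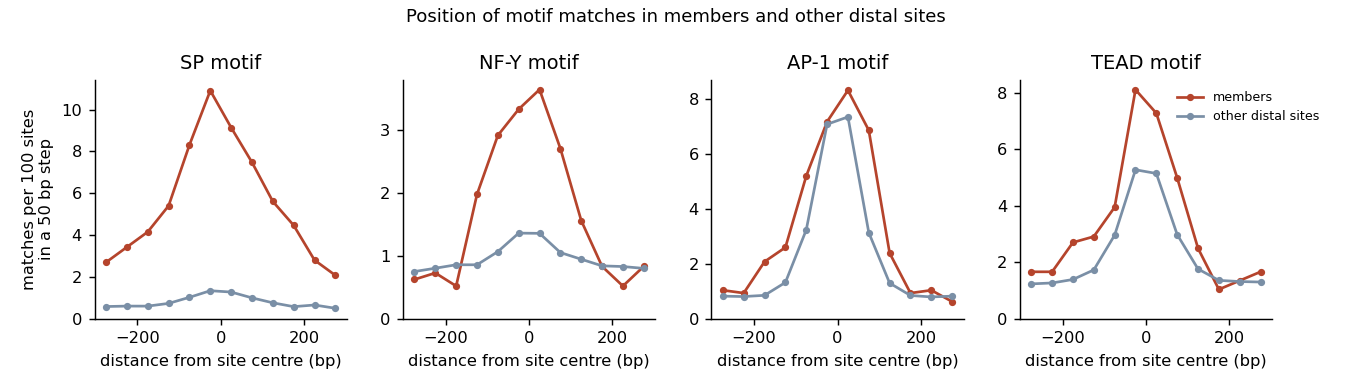
Motif matches per 100 sites in 50 bp steps (y axis) by distance from the centre of the site in bp (x axis) for members and other distal sites. SP peaks at 10.9 per 100 members, and the AP-1 curve of members is wider than that of other distal sites.

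Composition divided the members by motif. Part of this is built in, because CpG-rich windows were defined by their GC and CpG content. The SP and ETS motifs each hold a CpG, while those of AP-1 and TEAD hold none. The 232 CpG-rich members matched SP in 43.5% of cases (37.3 to 50%), NF-Y in 19.4% and ETS in 9.05%, but AP-1 in 6.03% (3.63 to 9.87%) and TEAD in 8.19% (5.31 to 12.4%). Their median distance to a start was 8706 bp, against 17177 bp for the 731 remaining members. Position moved with this: CpG-rich windows were 50.4% of members 1 to 2.5 kb from a start, 24.7% at 2.5 to 10 kb and 18.4% beyond, and SP matched 31.4%, 24.3% and 16.7%. TEAD matched 15.7%, 16.5% and 18.9% over the same steps. Among members with SP 10.1% also had TEAD, against 19.9% of members without SP. None of SP, AP-1, TEAD, NF-Y and CAGCTG was found in 360 members (37.4%).

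Base composition by itself moves motif shares, so both sets were also limited to windows of 55 to 65% GC, a comparison added after the others were seen. The limit was on GC only and did not match the sets in CpG content. SP then matched 18% of 494 members (14.9 to 21.6%), against 7.01% of 16130 other distal sites (6.63 to 7.42%). TEAD matched 17.8% of members and 9.6% of other distal sites, NF-Y 8.30% and 3.05%, and AP-1 18.8% (15.6 to 22.5%) and 13.6% (13.1 to 14.2%). CTCF matched 0.405% of members and 7.43% of other distal sites. For CAGCTG the direction turned, with 20.2% of members (16.9 to 24%) and 21.1% of other distal sites (20.5 to 21.8%).

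Within the replicates, each taken by its own distal peaks at 125 or more against its other distal peaks, the directions of GC, SP, NF-Y, TEAD, AP-1, CAGCTG and CTCF recurred in all 3, but their sizes varied. The difference in SP share was 3.38, 4.57 and 16.8 percentage points in replicates 1, 2 and 3, or 8.23 ± 7.41 (SD, n = 3). For AP-1 it was 9.44, 9.93 and 1.57 points, so replicate 3 stood apart in both, high for SP and low for AP-1. For GC content it was 3.76, 4.45 and 10.49 points. CTCF varied less, at −3.39 ± 0.619 points, as did CAGCTG at 4.01 ± 0.526 and TEAD at 6.40 ± 1.87. For TAATTA it was −0.589 ± 1.89 points and for RUNX −0.625 ± 1.81, both smaller than the spread between replicates. With the 1191 or more top distal peaks of each replicate, SP still differed by 10.7 ± 5.28 points and AP-1 by 6.81 ± 4.71.

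The sites that replicate 3 left out carry the contrast. The 3201 that passed in replicates 1 and 2 and scored lower in replicate 3 matched AP-1 in 27.2% of cases (25.7 to 28.8%), against 18.3% of members (16 to 20.8%). They matched SP in 3.00% (2.46 to 3.65%), close to the 3.16% of other distal sites, and 3.31% of them were CpG-rich, against 24.1% of members. The score of replicate 3 alone split members from these sites, so the intervals do not cover the spread between replicates. Over all sites that passed without replicate 3, 7.88% were CpG-rich, against 1.85% of the remaining distal sites. TEAD matched 17.9% of members (15.6 to 20.4%) and 18.9% of these sites (17.6 to 20.3%), a difference within counting error. Without replicate 3 the rule gave 4215 sites in place of 963, and the difference from the remaining distal sites became 4.67 points for SP and 9.22 points for AP-1. Replicate 3 also had the fewest peaks, and a promoter peak at 1 of 10 microglial markers, where replicates 1 and 2 had 10 of 10. The part of either in these differences was not tested.

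**Figure D5:**
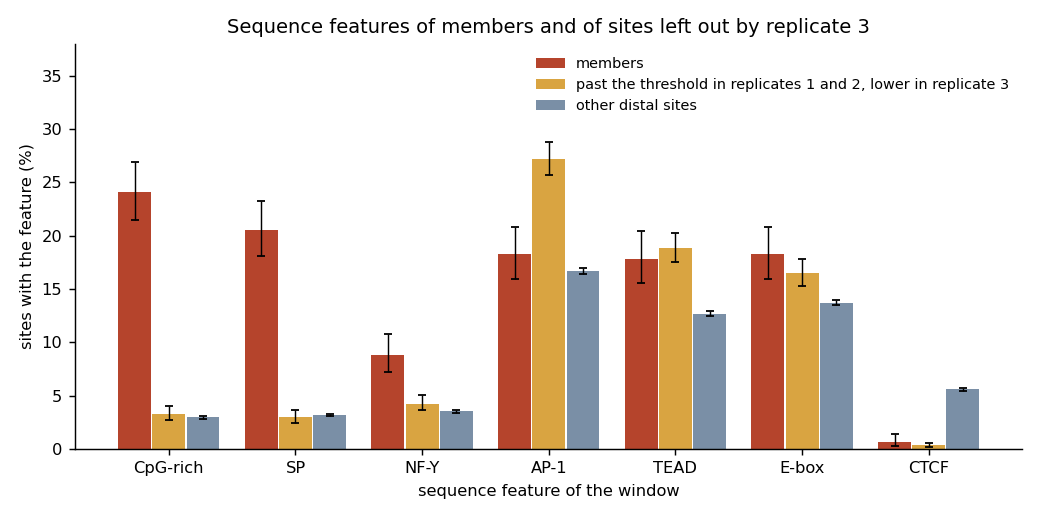
Share of sites with a sequence feature (y axis, %) by feature (x axis) for members, for 3201 sites past the threshold in replicates 1 and 2 and lower in replicate 3, and for other distal sites, with 95% Wilson intervals. SP is at 20.6% in members, 3.00% in the sites that scored lower in replicate 3 and 3.16% in other distal sites, while AP-1 is highest of the 3 sets, at 27.2%, in the sites that scored lower in replicate 3.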

How the data were processed

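The authors deposited a peak list and a hotspot list for each replicate on mm10. The deposited peak value is a score, a whole number whose meaning is not stated, and the deposited hotspot value is a −log10 q, per the file columns; none of the sources used here gives the aligner, the caller or the read depth. No counts come with the lists, so no depth-based interval could be given. Repeated peak positions (64) were removed and peaks merged by code (Python 3.11.15, pandas 2.3.3). Start sites and coding sequence are those of GENCODE M21, and sequence is the mm10 reference, read with pysam 0.24.0. Windows of 150 bp were scanned for 38 consensus motifs on either strand. The motif search, merging and distances were tested on simulated data. With a single group there is no contrast between conditions, so no p-value is given. The members, 14 gene lists (336 genes, all found by symbol) and motifs were chosen with earlier results of these data known. Named were the 15 members with the highest lowest score, the 15 genes and 5 clusters with most members, up to 4 genes per list and the top member per motif; the choice of further genes came after their values were known. Alternatives changed the threshold, merging, start definition, distance, windows and replicates. Some genes that these rules name are not reported here.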

Additional observations from a re-analysis of the deposited data

How the results depend on the processing

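The score threshold and replicate 3 decide how many sites there are. The 963 members became 1516 at a threshold of 120, 546 at 130 and 444 with the same number of top distal peaks taken from each replicate, and 962 to 4215 with a replicate left out; the 4215 came without replicate 3. The 781 genes became 463 at 130, 396 with the same number of peaks, and 783 to 2795 with a replicate left out. The share of members with another within 10 kb, 19.6%, was 10.8% with the same number of peaks, 14.6% when linked at 5 kb, 34.3% at 50 kb and 19.1 to 24.6% with a replicate left out. Without a replicate, the difference from other distal sites was 4.34 to 10.3 points for GC, 4.67 to 17.5 for SP and −4.72 to −3.76 for CTCF, and each was nearest 0 without replicate 3. For CTCF it was −3.81 points in 300 bp windows, −7.03 with both sets limited to 55 to 65% GC and 0.422 against flanking windows. Directions turned for the CTCF core against flanking windows (2.75 points), for CAGCTG within that GC range (−0.892) and for AP-1 with outermost gene starts only (−1.74). The cause was not tested. In all, 102 values stayed within the replicate spread or the 1.5-fold limit for counts, 42 moved and 4 turned. No paired analysis was possible because there is a single group. Depth is unknown, so no value here could be set against it.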

Other observations

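MicroRNA genes stood near some members; the 5 kb limit was chosen after other results were seen. An annotated microRNA gene lay within 5 kb of 30 members (3.12%, 95% Wilson interval 2.19 to 4.41%), against 962 other distal sites (1.17%, 1.10 to 1.25%). Mir22 had 3 members within 2151 bp, and the nearest of them, 511 bp away, scored 143, 146 and 136 in replicates 1, 2 and 3. Mir21a, known for its induction in injury, had a site 2878 bp away that scored 146, 147 and 142. Mir210, known for its induction by hypoxia, had a site 343 bp away that scored 147, 142 and 144, the Rassf7 site with the CTCF match. Mir34a, a p53 target, had a site 1681 bp away that scored 142, 136 and 137. The last site of the Nanos3 cluster lay 4753 bp from Mir23a and 4907 bp from Mir27a.

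Some members were close to starts of known long noncoding RNAs. A site at a start of Snhg8 scored 145, 145 and 139 and lay 61523 bp from a coding start. A site 844 bp from a start of Malat1 scored 133, 133 and 137. A site 14 bp from a start of Trp53cor1, which lies next to the cell cycle inhibitor gene Cdkn1a, scored 143, 139 and 131. Without the 182 members and 5726 other distal sites within 1 kb of any annotated transcript start, a comparison added after the data were seen, members still exceeded other distal sites by 14.6 points in SP share and 9.56 points in GC.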
